A study of Drosophila melanogaster with 3 samples.

Results

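Obp28a (FBgn0011283), a gene for an odorant-binding protein, was followed through 3 single-cell RNA-seq libraries of third-instar larval peripheral chemosensory organs of Drosophila melanogaster. It is 1 of 10457 gene symbols with a count in the 3 libraries, and 1 of 24 odorant-binding protein (Obp) genes among them. The gene was chosen by measured values of these libraries. These were its level, its share of counts, its spread over barcodes, its concentration in single barcodes and the genes that rise with it. The values of Obp28a itself are therefore descriptions and carry no test. The 3 libraries are treated as replicates of 1 group. Their titles number them as replicates but carry a different ending for each, which the labels do not explain. These endings were not used as conditions, and whether the libraries were prepared alike is not known. The labels give no genotype and no treatment, and name neither the driver nor the marker behind the fluorescence by which the organs were picked. Cells were freed with collagenase and elastase and caught with barcoded beads by DisCo, a droplet method for small samples. A barcode is the sequence that marks the transcripts caught with 1 bead, and barcodes are not called cells here.

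Odorant-binding proteins are small secreted proteins of insect chemosensory sensilla. They are made by the support cells that surround the sensory neurons, and they bind hydrophobic odorants in the fluid that bathes the receptor neurons' dendrites. Obp28a, also known as Pbprp5, is among the family members known from olfactory and gustatory organs of flies, and the larval head organs are such organs. In the annotation used here (BDGP6) the gene lies on arm 2L, on the minus strand, with 1 exon and with 0 other genes overlapping it. Its neighbours Ziz and RapGAP1 had 1 and 33 counts over all libraries.

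The libraries differed in ways that touch every value. They listed 295, 518 and 556 barcodes with 508018, 689416 and 369432 counts in replicates 1, 2 and 3. Of these, 61, 214 and 231 reached 200 genes and are called kept barcodes, with median counts of 3337, 521.5 and 513. Replicates 1 and 2 shared 1 listed barcode, as did replicates 2 and 3, and 0 kept barcodes were shared. Replicate 1 stood apart, with 54 counts of 10 neuron markers in its kept barcodes against 4021 in replicate 2. Nothing in the labels says that the replicates came from separate cultures or animals. Intervals are exact 95% Poisson or Clopper-Pearson intervals and cover counting error only.

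Obp28a was among the most abundant transcripts in 2 of the 3 libraries. It was the gene with the most counts in replicate 1, ranked number 3 in replicate 3 and number 60 in replicate 2. Over all barcodes it had 26044 counts in replicate 1, 1588 in replicate 2 and 4866 in replicate 3. Its level was 51266 counts per 1000000 (CPM) in replicate 1 (interval 50645 to 51892), 2303 CPM in replicate 2 (2191 to 2420) and 13172 CPM in replicate 3 (12804 to 13547). The highest library thus lay 22.3-fold above the lowest, and no interval touched another. In kept barcodes it took 5.14%, 0.217% and 1.25% of the counts, a mean of 2.20% ± 2.60 (SD, n = 3). The SD exceeded the mean, and without replicate 1 the mean was 0.735%. In sums over a library, fewer cells that make the transcript and less of it per cell cannot be told apart.

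The place of Obp28a within its own family also differed between libraries. Of all Obp counts it made up 97.8% in replicate 1, 45.6% in replicate 3 and 11.2% in replicate 2. The next Obp gene of replicate 1 was Obp56c with 236 counts, and Obp56h, the leading family member of replicate 2, had 3. In replicate 2, Obp56h, Obp56b and Obp49a stood above Obp28a with 3997, 3389 and 3328 counts. In replicate 3 Obp28a led, followed by Obp56h with 2253 counts and Obp49a with 1601.

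Obp28a was counted in most barcodes of every library. It was present in 60 of 61 kept barcodes of replicate 1 (98.4%, interval from 91.2%), in 175 of 214 of replicate 2 (81.8%, 75.9 to 86.7) and in 231 of 231 of replicate 3 (interval from 98.4%). The mean was 93.4% ± 10.1 (SD, n = 3). Over all barcodes with any count the shares were 60.7%, 54.5% and 80.4%. A deeper barcode has more chance of holding a count, so each barcode was also thinned to 395 counts, with 125 shallower kept barcodes left out. The expected share of kept barcodes with a count then averaged 82.1% over the libraries.

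In counts summed over barcodes, the Obp28a share of replicates 2 and 3 was lower the deeper the class. In replicate 2 it was 0.470% of the counts in barcodes under 200 genes (interval 0.401 to 0.547), 0.402% from 200 to under 500 genes, 0.336% from 500 to under 1000 genes and 0.183% at 1000 or more genes (0.172 to 0.195). In replicate 3 the same classes stood at 2.26% (interval 2.07 to 2.45), 2.22%, 1.35% and 0.732% (0.695 to 0.771). The shallowest and the deepest classes did not overlap in either library. Median shares of single barcodes, in the same order, were 0%, 0.332%, 0.351% and 0.201% in replicate 2. In replicate 3 they were 1.46%, 2.14%, 1.81% and 0.747%. Over kept barcodes, share and total counts had Spearman correlations of -0.03 and -0.22. The deepest class of replicate 3 had 10 barcodes, and the top barcode held 54.5% of its Obp28a counts. In replicate 1 there was no such order over all barcodes, with 4.51%, 10.6%, 1.74% and 5.16% from the shallowest class to the deepest. With 11 barcodes of at least 200 genes and a share of at least 10% left out, the classes from 200 genes up fell with depth. They stood at 1.84% (interval 1.61 to 2.09), 1.18% and 0.793% (0.762 to 0.825). Those 11 were chosen by their share after the values were seen.

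The gap between the summed shallow and deep classes of replicates 2 and 3 was wider than for most genes. The share in barcodes under 200 genes was 2.57 times that in barcodes with at least 1000 genes in replicate 2, and 3.08 times in replicate 3. The median gene with at least 100 counts had ratios of 0.908 and 0.789. Of 1100 such genes in replicate 2, 12 had a higher ratio than Obp28a, and of 742 in replicate 3, 29 had. In replicate 1 its ratio was 0.876, near the median gene's 0.807, and 317 of 702 genes were higher. By counts, Obp28a ranked number 22 in the shallowest class of replicate 2 and number 96 in the deepest. In replicate 3 the ranks were 3 and 9.

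**Figure D1:**
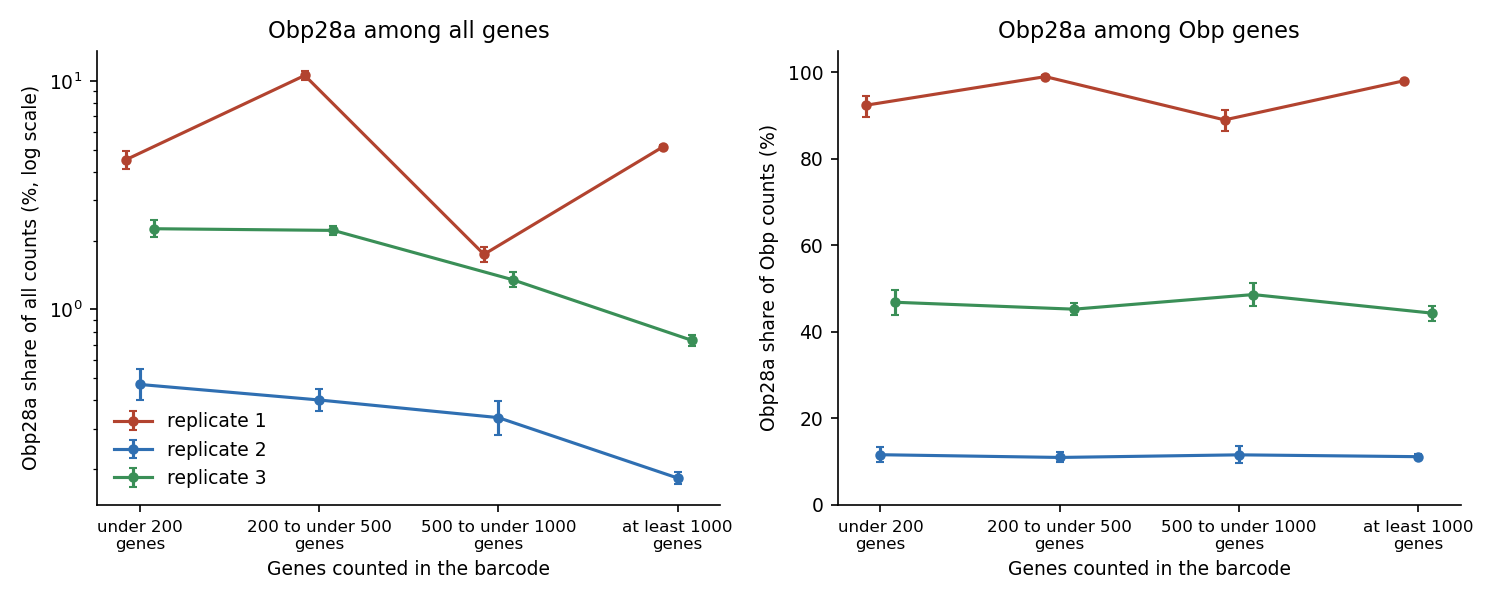
Obp28a by barcode depth in the 3 libraries (colours). The left panel gives its share of all counts (%, log scale) and the right panel its share of Obp counts (%), with barcodes classed by the number of genes counted and bars for exact 95% intervals. In replicates 2 and 3 the summed share of all counts is lower in deeper classes, down to 0.183% and 0.732% in the deepest, while the share of Obp counts is nearly level.

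As a share of Obp counts, Obp28a was nearly level over the classes of replicates 2 and 3. It was not level in replicate 1, at 92.4% (interval 89.8 to 94.5), 99.0% (98.5 to 99.4), 89.0% (86.5 to 91.2) and 98.1% (97.9 to 98.2) from the shallowest class. In replicate 2 Obp28a made up 11.0 to 11.6% of Obp counts over the 4 classes, 11.6% in the shallowest and 11.2% in the deepest. In replicate 3 it made up 46.9%, 45.3%, 48.6% and 44.3%. In replicate 2 the interval of the shallowest class (9.99 to 13.4%) holds those of the deepest (10.5 to 11.8%), and in replicate 3 the intervals of these classes overlap (43.9 to 49.8% and 42.6 to 46.1%). The ratio of Obp28a to Obp56h counts lay between 0.372 and 0.438 over the 4 classes of replicate 2 and between 2.07 and 2.40 over those of replicate 3. The same genes had like depth ratios of their own. Obp56h stood at 2.66 and Obp49a at 2.41 in replicate 2, and at 3.22 and 2.29 in replicate 3. A level ratio was not particular to Obp genes. Obp28a counts per CG14456 count lay between 0.205 and 0.226 in replicate 2 and between 0.517 and 0.595 in replicate 3. Those per PebIII count varied more, at 7.47 to 13.8 and 2.96 to 4.67. Transcripts free in the suspension would reach every barcode in 1 fixed ratio of genes, and their part in these counts was not tested.

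Obp proteins are known as products of support cells, yet Obp28a was also counted in most barcodes with neuron markers. At least 2 of the 10 neuron markers were counted in 137 kept barcodes of replicate 2, of which 122 had an Obp28a count (89.1%, median 637 counts), against 53 of the 77 others (68.8%, median 377). In replicate 3 the figures were 165 of 165 (median 600 counts) and 66 of 66 (median 396.5). Thinned to 395 counts, the expected shares were 72.4% and 64.9% in replicate 2, and 95.5% and 98.0% in replicate 3. Among barcodes with 200 to under 500 genes, Obp28a took 0.442% of the counts (interval 0.383 to 0.507) with the markers and 0.340% (0.277 to 0.413) without in replicate 2. In replicate 3 it took 2.21% (2.10 to 2.32) and 2.24% (2.07 to 2.42). In replicate 2 all 3 of these values were higher with the markers, although the intervals of the shares overlapped. Over all kept barcodes the Obp28a share of counts was lower with the markers in replicates 2 and 3. It was 0.211% against 0.338% in replicate 2, and 1.16% against 2.24% in replicate 3. In replicate 1, where 9 kept barcodes had the markers, it was 6.95% against 2.78%. The share of barcodes with a count is not given here as the share of cells that express the gene.

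Single barcodes of 200 to under 500 genes varied little beyond counting error in replicates 2 and 3. A dispersion index, the variance over the value that counting error alone gives, was 1.45 for barcodes of 200 to under 500 genes in replicate 2 and 2.02 in replicate 3, where 1 means counting error only. For Obp56h the same indices were 1.55 and 1.48. In replicate 1 the index for Obp28a was 98.8 in that class and 1771 among barcodes with at least 1000 genes, where a few barcodes held nearly all counts. In barcodes of that depth it was 5.28 in replicate 2 and 42.0 in replicate 3, and for Obp56h 14.3 and 21.5. The index grows with the counts of a barcode. The class of 200 to under 500 genes in replicate 2 held only 302 Obp28a counts in 160 barcodes.

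**Figure D2:**
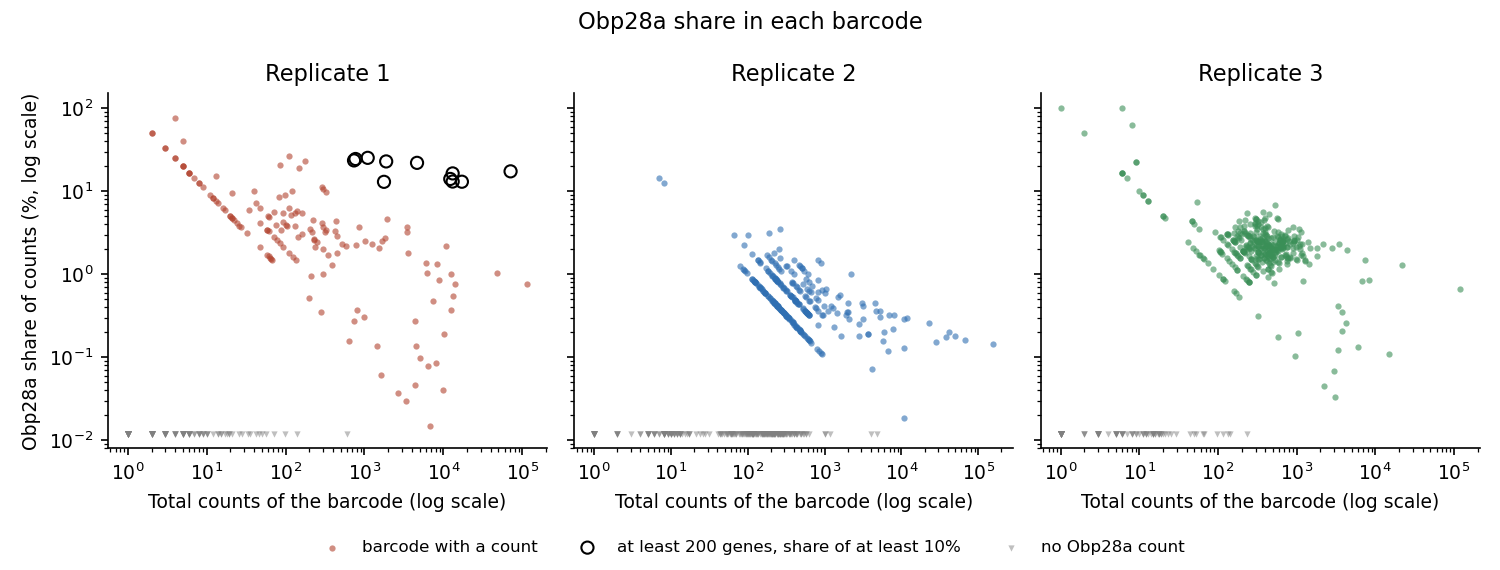
Obp28a share of counts (%, log scale) against the total counts of each barcode (log scale) in the 3 libraries. Points are barcodes with an Obp28a count, grey triangles at the foot are barcodes without, and open circles are the 11 barcodes of replicate 1 with at least 200 genes and a share of at least 10%. Those 11 lie between 12.9% and 25.2%, while kept barcodes of replicate 2 stay at or under 1.49%.

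In replicate 1 a few barcodes held most of the Obp28a counts. The second deepest barcode alone, with 71149 counts of 2843 genes, held 12321 Obp28a counts, 47.3% of the library's (interval 46.7 to 47.9), and 14.0% of all counts. The deepest barcode held 22.5% of all counts and 3.30% of those of Obp28a. Together 2 barcodes held over 50% of the Obp28a counts, whereas 5 were needed for 50% of all counts. In replicate 2 the order was the other way, with 12 barcodes for Obp28a against 5 for all counts, and in replicate 3 it was 43 against 8. In these libraries the barcode with most Obp28a counts was also the deepest, and it held less of the gene than of all counts, at 14.2% against 22.8% and 16.0% against 32.1%.

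**Figure D3:**
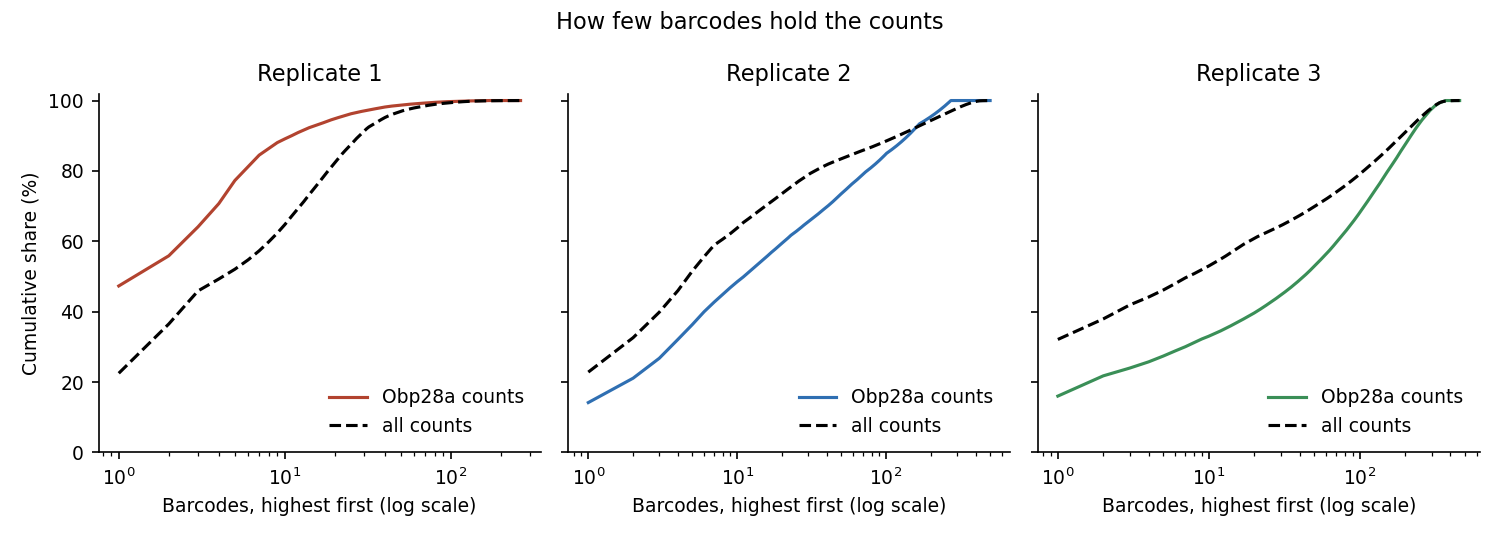
Cumulative share (%) of Obp28a counts (solid) and of all counts (dashed) over barcodes ordered from the highest (log scale), 1 panel for each library. Obp28a lies above all counts in replicate 1, where 2 barcodes reach 50%, and below it over the leading barcodes of replicates 2 and 3, where 12 and 43 are needed.

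The Obp28a-rich barcodes of replicate 1 resembled one another in sequence and in content. Obp28a took 17.3% of the counts of the second deepest barcode, and 13.0%, 16.4%, 14.0%, 13.1%, 21.9% and 24.4% in the 6 kept barcodes within 4 edits of it. These 7 barcodes held 21334 of the 25569 Obp28a counts in kept barcodes (83.4%) and 26.6% of all counts. The deepest barcode with the 17 near it stood at 0.603%, the third deepest with the 7 near it at 1.02%, and the remaining 28 at 4.33%. Barcodes of such likeness can stem from 1 bead, so the number of separate cells behind the 7 is not known. Around the 3 deepest barcodes of libraries 2 and 3 no such group was seen, and those barcodes with the ones near them stood at 0.138 to 0.197% and at 0.446 to 1.30%. Among all kept barcodes of these libraries the highest shares were 1.49% and 6.75%.

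A share of at least 10% marked 11 kept barcodes of replicate 1, a limit chosen after the values were seen. They were the 7 above and 4 more with shares of 12.9 to 25.2%. The next barcode down had 9.66%. Of the 11, 10 lay within 6 edits of the second deepest barcode, against 10 of the other 50 kept barcodes. The 4 outside the 4-edit group, summed without Obp28a, correlated with that group at a Pearson r of 0.752 over 1112 genes (log2 CPM, across genes, which are not independent replicates). Against the groups of the deepest and the third deepest barcode, r was 0.427 and 0.423. Without the 11 barcodes Obp28a stood at 0.869% (interval 0.839 to 0.900) in replicate 1, 3126 of 359753 counts.

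The rich group carried other abundant transcripts with Obp28a. CG13721, of no role known here, reached 49695 CPM in the 7 barcodes and 3258 CPM in the other kept barcodes of replicate 1. PebIII, a chemosensory-protein family gene now named EbpIII, stood at 23358 and 2147 CPM, and Cys, which encodes a cystatin-like protease inhibitor, at 4477 and 460 CPM. The gene ple encodes tyrosine hydroxylase, an enzyme of catecholamine synthesis and cuticle tanning, and stood at 4008 and 296 CPM. These come from barcodes of 1 library, so no test was made.

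Marker lists moved with the rich group, and their part in it was not tested. Epidermis markers summed to 4597 CPM there, and to 425 to 1106 CPM in the other groups of replicate 1, but 530 of the 608 counts were ple. The epidermal transcription factor gene grh had 4 counts and vvl and verm had 0. The trachea list stood at 1497 CPM against 36.0 to 638 CPM, and all 198 counts were Gasp, a chitin-binding protein gene, while trh, btl and uif had 0. Support cell markers, the list nearest to the known source of Obp proteins, had 2 counts, both of pros, with nompA, sv, Su(H), Sox15 and shakB at 0. Neuron markers had 24 counts, and the glia list had 42, with repo at 0. Fat body, hemocyte and salivary gland markers had 0.

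Obp28a and CG13721 kept a like ratio in the groups around the 3 deepest barcodes of replicate 1, but not over its depth classes. There were 3.25 Obp28a counts per CG13721 count in the rich group (interval 3.16 to 3.34), 2.93 (2.65 to 3.24) around the deepest barcode and 3.02 (2.60 to 3.52) around the third deepest. The farther barcodes stood apart at 4.57 (4.12 to 5.08). From the shallowest depth class to the deepest the ratio was 5.22 (4.16 to 6.61), 3.45 (3.16 to 3.76), 5.59 (4.58 to 6.87) and 3.24 (3.16 to 3.33). In replicate 3 the ratio was 11.2 to 14.8 over the depth classes and 7.95 to 15.8 over the groups. In replicate 2 CG13721 had 0 counts beside 1588 of Obp28a, which allows up to 4.35 CPM. CG13721 was thus counted beside Obp28a in replicates 1 and 3 only.

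Genes that rose with Obp28a from barcode to barcode were sought within each library. Partial Spearman correlations, given the barcode's total count, were taken over kept barcodes for genes counted in at least 10% of them. They are descriptions with no p, since barcodes of a library share its suspension and those near 1 deep barcode may share a bead. In replicate 1, over 61 barcodes, 667 of 2282 genes stood at -0.3 or lower, and 471 of 2282 (20.6%) reached 0.3. In replicates 2 and 3, over 214 and 231 barcodes, 0 of 1758 (0.0%) and 0 of 1062 (0.0%) did, while partial Pearson correlations of log2 values put 1 and 13 genes there. Of the 510 genes measured in every library, 0 (0.0%) reached 0.3 in all 3, and 37 were above 0 in all 3.

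The strongest likeness was in replicate 1. CG13721 had a correlation of 0.94, PebIII 0.90, l(2)34Fc 0.86, Cys 0.84 and ple 0.76. Without the 7 barcodes of the rich group these were 0.90, 0.85, 0.80, 0.79 and 0.65 over 54 barcodes, so the likeness was also present outside that group. The number of genes at 0.3 or more was then 185 of 2092. In replicate 3 PebIII stood at 0.23 and CG13721 at 0.14, and in replicate 2 PebIII stood at -0.06. The gene ple had 0 counts in replicate 3 and 2 in replicate 2.

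The genes whose lowest correlation over the 3 libraries was highest were weak companions over the kept barcodes of replicates 2 and 3. CG14456 led with 0.48, 0.25 and 0.21 in replicates 1, 2 and 3, and its neighbour on arm 3L, CG14455, followed with 0.39, 0.18 and 0.23. Obp56b and CG32726 had a lowest value of 0.13, and Vha13, which encodes a subunit of the vacuolar proton pump, of 0.12. CG14277, Cys, Obp49a and FK506-bp2, the older symbol of Fkbp12, had lowest values of 0.08 to 0.10. Among the 5 highest of replicate 2 were CG14456, Obp49a, RpS14b and CG14455, at 0.25, 0.21, 0.18 and 0.18. In replicate 3 the 5 highest were CG11368, Obp49a, CG14455, PebIII and CG14456, at 0.26, 0.25, 0.23, 0.23 and 0.21. In counts this sparse, values of this size are no finding.

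Deeper barcodes gave higher values. With at least 500 genes required, 37, 54 and 37 barcodes remained, and 923 of 2895 genes (31.9%), 60 of 4055 (1.48%) and 370 of 1930 (19.2%) reached 0.3. In all 3 libraries 3 of 932 genes (0.322%) did, and they were Obp56c, Obp56b and PebIII. Obp56c had 0.46, 0.46 and 0.49 in replicates 1, 2 and 3, Obp56b 0.41, 0.61 and 0.73, and PebIII 0.97, 0.31 and 0.62. The replicate 1 values of the Obp genes rest on little. Obp56b had 20 counts in these barcodes there, and 64.4% of all Obp56c counts of that library lay in 1 barcode. Other Obp genes were unequal, with Obp49a at 0.18, 0.45 and 0.63 and Obp56d at 0.21, 0.02 and 0.65. Obp56h stood at 0.43 in replicate 2 and 0.62 in replicate 3, and Obp83g at -0.42 in replicate 1. CG14456 stood at 0.87, 0.25 and 0.67 in replicates 1, 2 and 3, and CG14277 at 0.84, 0.22 and 0.59.

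**Figure D4:**
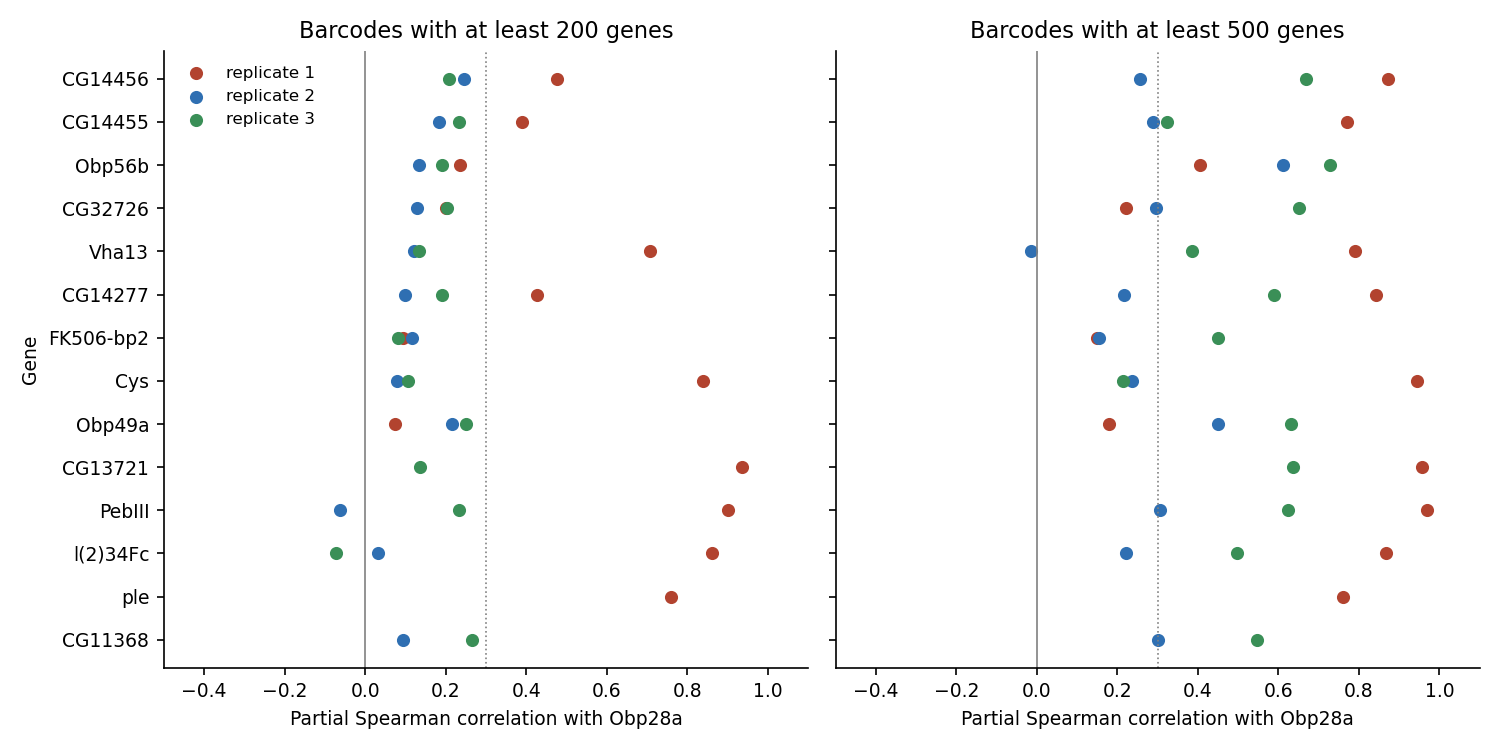
Partial Spearman correlation with Obp28a, given barcode depth, for 14 of the genes chosen by rank (rows), in kept barcodes (left) and in barcodes with at least 500 genes (right), coloured by library. Solid and dotted lines mark 0 and 0.3. In kept barcodes all points of replicates 2 and 3 lie under 0.3, and in deeper barcodes Obp56b and PebIII lie above it in all 3 libraries.

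Lists of genes were read against all genes in the same way, over kept barcodes. Of the other Obp genes, 5, 6 and 6 could be measured in replicates 1, 2 and 3, with median correlations of 0.20, 0.07 and 0.19, against -0.07, -0.07 and -0.06 over all genes. The only one at 0.3 or more was Obp47b, at 0.67 in replicate 1, where 48.1% of its counts lay in 1 barcode. Ribosomal protein genes had medians of -0.22, 0.00 and -0.02, with 1 of 84, 0 of 82 and 0 of 81 at 0.3 or more. Mitochondrial genes stood at 0.24 in replicate 1, with 6 of 15 at 0.3 or more beside 20.6% of all genes, and at -0.05 and -0.09 in the others. Of the 8 epidermis markers, 6 could be measured in replicate 1, and 3 of these (ple, Ddc and serp) reached 0.3, beside 20.6% of all genes. The others, grh, kkv and knk, stood at -0.39, -0.26 and -0.02. The median of the list was 0.25 there, and -0.05 without the rich group. Neuron markers had medians of -0.04 and -0.13 in replicates 2 and 3, with 0 of 8 at 0.3 or more in each, and the 1 measured in replicate 1, nrv3, stood at 0.41. Secretory pathway genes had 0.09, -0.08 and -0.23, with 2 of 8 at 0.3 or more in replicate 1, and cuticle protein genes -0.11, 0.03 and 0.04. Glia markers had 0.16, 0.02 and 0.05. Of the chemosensory-protein list, PebIII was the only member at 0.3 or more, in replicate 1. Support cell and muscle markers had 0 members at 0.3, with 1 and 2 measured in replicate 1, and Gasp was the only trachea marker measured. Hemocyte, fat body and salivary gland markers could not be measured in any library.

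To set libraries rather than barcodes as replicates, the kept barcodes of each library were split at the median Obp28a share of its barcodes. The upper class is called Obp28a-rich and the lower Obp28a-poor. Counts were summed per class with Obp28a left out, and tested with edgeR's quasi-likelihood test with the library as a block. Genes that rise with Obp28a were among the values behind its choice, so the p-values are not independent support. The classes held 30 and 31, 107 and 107, and 115 and 116 barcodes in replicates 1, 2 and 3. Obp28a took 13.5% and 0.665%, 0.507% and 0.166%, and 2.70% and 0.859% of their counts, which follows from the split. The deepest barcode gave 41.1% and 35.2%, 8.15% and 28.3%, and 4.72% and 43.7% of the counts of each class. Without Obp28a the sums held 149585 and 322338, 97896 and 554744, and 72049 and 269243 counts. Median counts of a barcode were 1582 and 5948, 549 and 491, and 535 and 504. The poor sum was thus the larger in every library, and the part of barcode depth in the result was not tested.

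Of 3179 genes tested, 4 were higher in Obp28a-rich barcodes (0.126%) and 0 were lower (0.0%) at an adjusted p of 0.05. They were CG14456, CG13721, PebIII and CG14277. CG14456 had 13176, 17498 and 40736 CPM in the rich class of replicates 1, 2 and 3, and 1111, 8508 and 17170 CPM in the poor class. The rich sum was the higher in all 3 libraries, although the ranges of the classes overlapped. Its log2 fold change was 1.81 ± 0.24 (SE), with an adjusted p of 2.57e-10 in edgeR. PebIII had 22516, 449 and 5691 CPM in the rich class and 1567, 231 and 2559 CPM in the poor class. It was also higher in all 3 libraries, with a log2 fold change of 1.85 ± 0.33 (SE) and an edgeR adjusted p of 2.55e-05.

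CG13721 had 46916 and 1624 CPM in the rich class of replicates 1 and 3, and 2308 and 765 CPM in the poor class, with no count in replicate 2. Its log2 fold change was 2.53 ± 0.37 (SE, edgeR adjusted p 9.15e-09), and without replicate 1 it was 1.12 with an adjusted p of 1.00. CG14277 had 6946, 5465 and 9188 CPM in the rich class and 444, 2812 and 4799 CPM in the poor class. The classes did not overlap, at a log2 fold change of 1.77 ± 0.35 (SE, edgeR adjusted p 0.000482). Another gene overlaps CG14277 in the annotation, so its counts are uncertain. The calls rested on the settings: 0 genes passed with DESeq2, without the 3 deepest barcodes of each library, with the split at the library's summed share, with no library block, or without replicate 2. The fold changes of the 4 genes did not shrink with DESeq2, at 1.91 to 2.73 on the log2 scale, or without the 3 deepest barcodes, at 1.99 to 3.01. With the split at the summed share, that of CG14277 was 0.08 and that of CG14456 was 0.56. Without replicate 1, CG14456, PebIII and CG14277 passed at smaller log2 fold changes of 1.09, 1.03 and 0.90. An unadjusted p under 0.05 was found for 94 genes in edgeR, 61 of them higher in the rich class.

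**Figure D5:**
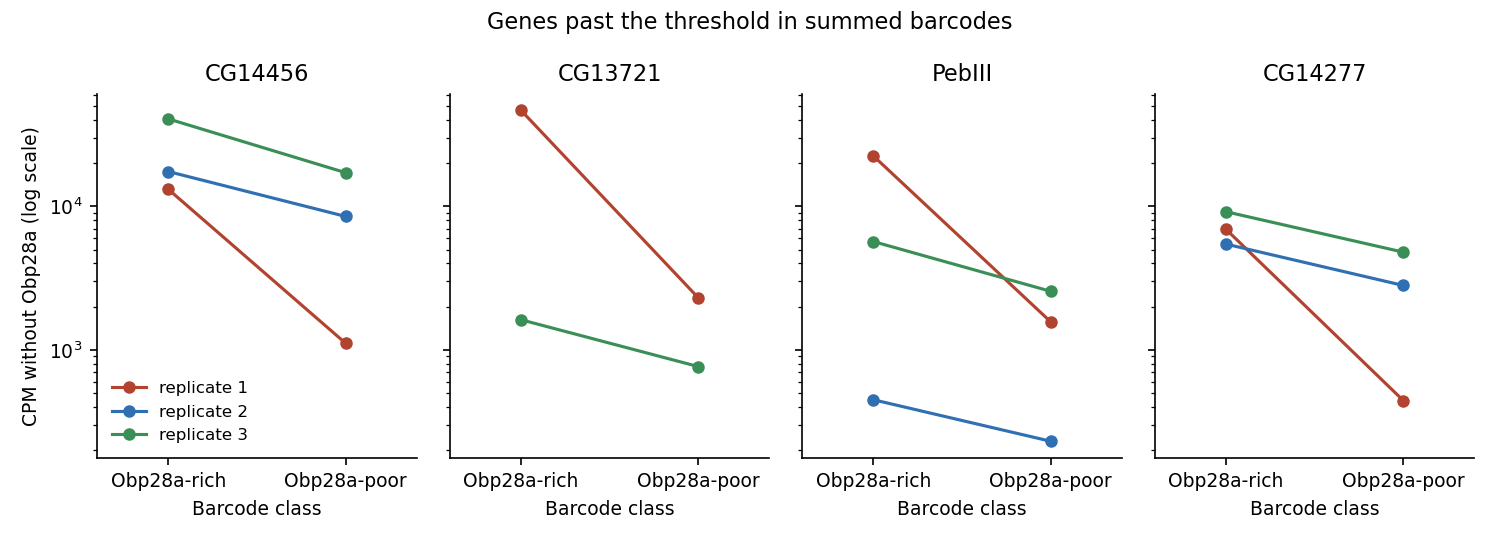
CPM without Obp28a (log scale) of the 4 genes past the threshold, in the summed Obp28a-rich (left) and Obp28a-poor (right) barcodes of each library (joined points, coloured by library). Every line falls to the right, and CG13721 has no points for replicate 2, where it had 0 counts.

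Most other Obp genes had fold changes above 0, and none passed. Of 9 tested, 7 had a log2 fold change above 0, beside 1404 of all 3179 genes tested. Of the 9, 0 passed, with a median of 1.05 against -0.12 over all genes tested. Some had few counts in replicate 1, where Obp56h had 6.69 and 0 CPM and Obp49a 33.4 and 27.9 CPM in the rich and poor class. Obp56d had 254, 2441 and 3248 CPM in the rich class and 3.10, 1181 and 1226 CPM in the poor class. Its log2 fold change was 2.09 ± 0.55 (SE), with an edgeR adjusted p of 0.0891. Without replicate 1, 15 genes passed, 14 higher and 1 lower, and Obp56b, Obp56h, Obp49a and Obp56d were among them at log2 fold changes of 1.18, 0.99, 1.08 and 1.17. The chemosensory-protein list had 1 member tested, PebIII. Ribosomal protein genes had a median of -0.23, with 0 of 85 called. No member of the neuron (9 tested), glia (4), support cell (2), epidermis (2), cuticle (13), mitochondrial (19), muscle (1) or secretory pathway (10) lists was called, and none of the other lists had a member tested.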

How the data were processed

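RNA was counted in 3 replicate libraries of larval peripheral chemosensory organs. Per the labels' protocols, cDNA was amplified for 21 cycles. In the deposited files each gene symbol has a whole-number count in each barcode, not normalized by the authors. STAR 2.7.0 and Seurat 3.1.2 are named in the submitters' processing notes without a role. The genome build, the counter, the collapsing of copies and any barcode correction are not given in the sources used here, so values are called counts and no coordinates are printed. If copies were not collapsed, amplification widens the error beyond the intervals.

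Barcodes under 200 genes were left out except where named, and there was no doublet caller, no clustering and no cell naming. CPM are counts per 1000000 of a library or barcode sum. Shares, exact intervals and correlations were computed with Python 3.11.15 and scipy 1.17.1, and correlations used counts per 10000 with Obp28a left out of the other genes' totals. Thinned shares are hypergeometric expectations. Summed counts were tested in R 4.3.3 by edgeR 4.0.16, after filterByExpr and TMM, with p-values adjusted by Benjamini-Hochberg. DESeq2 1.42.0 was the other tool tried. Both scripts were tested on simulated data. Of 10457 symbols, 8150 were current in the RefSeq table (Release 6) and 2174 others were a synonym of 1 gene.

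The gene, the lists and the tests were chosen with earlier results of these data known. Named genes are Obp28a, Obp genes with at least 50 counts, the 10 genes with the highest lowest correlation over the libraries, the 5 highest in each library, and up to 10 called in each direction; some of these are not reported here. Obp83g, Obp47b and other genes of the lists and groups named beside these were chosen after their values were seen, as were the 11 rich barcodes, the 6-edit limit and Gasp.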

Additional observations from a re-analysis of the deposited data

How the results depend on the processing

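The mean Obp28a share of counts, 2.20%, has an SD above the mean itself, so a move of less than 1 SD says nothing about stability. It lay between 0.876% without the rich group of replicate 1, an alternative added after seeing the data, and 2.22% over all barcodes. It lay between 0.735% and 3.20% with 1 library left out. The share of barcodes with a count, 93.4%, was 82.1% after thinning and 65.2% over all barcodes, and lay between 90.1% and 99.2% with 1 library left out. The top barcode held 27.3% of Obp28a counts on average, 16.9% to 33.1% with 1 library left out and 45.0% once barcodes within 4 edits were joined. The count of genes rising in every library was 0, and 3 with at least 500 genes required. With partial Pearson correlations CG14456 stood at 0.70 in replicate 3, against 0.21 by Spearman. With barcodes joined to 1 of the 3 deepest within 4 edits, it stood at 0.04 there, and that alternative was added after seeing the data.

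The 4 genes called between Obp28a-rich and Obp28a-poor barcodes became 0 with DESeq2, with no replicate block, with the split at the summed share and without the 3 deepest barcodes, and 8 with median-of-ratios size factors. Without the rich group of replicate 1 there were 11. With 1 library left out the count was 0 to 15, with 0 without replicate 2. The cause was not tested. The median log2 fold change over all genes tested was -0.12, and 0.18 with DESeq2. CG14456 passed in 6 of 11 alternatives, PebIII and CG14277 in 5 and CG13721 in 4, and no direction was reversed. Their log2 fold changes moved by over 1.5 times in some of these. Without the rich group CG13721 was at 1.34 and PebIII at 1.23, against 2.53 and 1.85. CG13721 was at 4.46 without replicate 3 and at 4.08 with no replicate block, where PebIII was at 2.87. The adjusted p of CG14456 ranged from 1.60e-28 to 0.999. The labels give 1 group, so the only pairing was that of the rich and poor sums of each library, and the library was the replicate block: 4 genes passed with it and 0 without. Depth limits what replicate 2 shows, where a kept barcode of median depth holds 521.5 counts and over all barcodes 1 count in 434 was of Obp28a.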
